A study of Sus scrofa domesticus with 16 samples.

Results

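Reduced representation bisulfite sequencing (RRBS) was carried out on lung DNA of 16 pigs, which differed in the dose of cholecalciferol in their feed. The increased dose, 3000 IU/kg of grower and 2500 IU/kg of finisher feed, was given to 8 animals, and the standard dose, 2000 and 1500 IU/kg, to the other 8. Each group held 4 males and 4 females, the feed was otherwise the same, and animals were kept until a set slaughter weight, so that no age is given. The deposited comparison lists 2349 differentially methylated sites (DMSs), each with 1 difference in methylation in percentage points, increased minus standard dose, and a q-value.

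The clusters described here are groups of DMSs that lie close together in the genome. They were chosen by position alone within the list: each DMS with another one at most 100 bp away was taken, and sites linked in this way were joined. The rule found 516 of the 2349 DMSs (22.0%, exact 95% interval 20.3 to 23.7%) in 224 clusters, and the other 1833 DMSs were isolated. The list itself was selected by the authors at 25 points of difference or more with q under 0.05, so the differences and q-values below chose the sites and are a description without a test. They are group values: no value per animal, no spread between animals and no read depth stand behind them here, and intervals of shares cover only the counting of sites, which are not independent of each other. In whole lung tissue, a change of methylation within cells and a change in the share of a cell type cannot be told apart.

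As background, DNA methylation in mammals is found mostly on the cytosine of CpG dinucleotides. Neighbouring CpGs are often methylated together, because the enzymes that copy and place the mark work along the strand and because 1 chromatin state covers several of them. RRBS cuts DNA with the enzyme MspI at the letters CCGG and reads the ends of the fragments, so it samples CpGs in groups close to these cuts. A cluster of differential sites is therefore the smallest unit in which the direction of a difference can be read from more than 1 CpG, although neighbouring CpGs may lie on the same reads.

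Sequences of the clusters are shown first, since most of them turned out to belong to 1 family. Letters are from the RefSeq copy of Sscrofa11.1, forward strand, with the called CpGs in capitals and 20 bases of flank on each side. The clusters with most sites were in an intron of MARK3 on an unplaced scaffold (positions 2036847 to 2036955, 9 sites), outside genes on the same scaffold (2619086 to 2619187, 6 sites), and in an intron of PFKFB4 (chr13:31223467-31223622, 5 sites). The cluster with the largest mean gain lay in an intron of LOC110255688 (chr1:225106372-225106470), the one with the largest mean loss in an intron of SCAF1 (chr6:54692645-54692731), and that of EBF3 (chr14:138861258-138861354) held 1 large gain and 1 large loss.
MARK3: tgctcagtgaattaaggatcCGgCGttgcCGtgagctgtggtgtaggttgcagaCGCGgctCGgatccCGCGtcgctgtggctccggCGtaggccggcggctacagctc
Scaffold cluster outside genes: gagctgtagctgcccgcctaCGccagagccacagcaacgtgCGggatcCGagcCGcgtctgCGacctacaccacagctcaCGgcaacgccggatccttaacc
PFKFB4: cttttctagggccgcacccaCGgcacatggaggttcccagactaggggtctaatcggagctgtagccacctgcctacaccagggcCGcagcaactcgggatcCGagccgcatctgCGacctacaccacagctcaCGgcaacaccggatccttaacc
Chromosome 1 cluster: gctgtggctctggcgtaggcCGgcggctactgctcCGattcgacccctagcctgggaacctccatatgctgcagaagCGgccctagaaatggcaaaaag
SCAF1: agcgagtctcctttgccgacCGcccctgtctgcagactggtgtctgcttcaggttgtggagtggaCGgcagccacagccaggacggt
EBF3: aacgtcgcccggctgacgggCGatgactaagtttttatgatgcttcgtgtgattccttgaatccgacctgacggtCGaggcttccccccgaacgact

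The first 4 of these sequences were parts of the same repeat in either orientation. To count its copies, windows of 301 bp around the middle of each cluster were aligned with each other, a step chosen after the sequences had been seen. The window with most alignments lay in an intron of WDR70 (chr16:22634636-22634898), and its shared part of 263 bases is given here with all of its 14 CpGs in capitals.
Representative copy: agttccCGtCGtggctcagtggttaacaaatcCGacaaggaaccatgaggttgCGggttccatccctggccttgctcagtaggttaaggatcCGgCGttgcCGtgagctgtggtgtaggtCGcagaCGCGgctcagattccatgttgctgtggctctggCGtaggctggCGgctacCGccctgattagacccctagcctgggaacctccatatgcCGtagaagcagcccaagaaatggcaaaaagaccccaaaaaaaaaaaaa
These letters are those of PRE-1, the tRNA-derived short interspersed element that is spread over the pig genome in very many copies. The name rests on general knowledge of this element, as no library of repeats was used.

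An alignment of at least 80 bp to this copy that held the middle of the window was found for 164 of 223 clusters (73.5%, 67.2 to 79.2%). Windows of the same length around isolated DMSs held it in 907 of 1804 cases (50.3%, 47.9 to 52.6%). Around CpGs of the reference, taken at regular steps from MspI fragments of 40 to 400 bp, it was present in 595 of 3206 windows (18.6%). Clusters thus lay in this repeat more often than isolated sites, and both more often than fragment CpGs of the genome. The difference was not tested, because a rule on distance favours sequence with closely spaced CpGs. The CpGs that were actually tested in lung are also known only by number. The sets differ in fragment length too, as only 139 of 223 clusters (62.3%) lay in 1 fragment of 40 to 400 bp. The representative was itself picked for most alignments to other cluster windows, which favours clusters. Between cluster windows and the representative, the median identity was 86.2% (69.9 to 90.9%) over a median of 240 bp, and 83 of 163 alignments were on the opposite strand. With at least 85% identity required, the shares were 43.9% of clusters, 23.4% of isolated sites and 10.7% of reference CpGs.

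**Figure D1:**
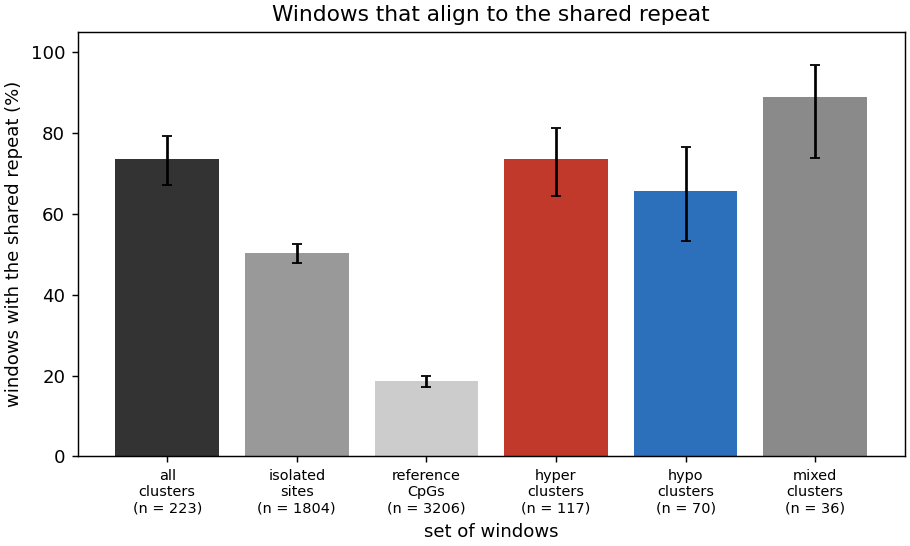
Share of windows of 301 bp (vertical axis, percent) that aligned to the representative copy of the repeat, for all clusters, isolated DMSs, reference CpGs, and clusters with all sites hypermethylated, all hypomethylated or both, with exact 95% intervals of counting as bars. Clusters stood at 73.5%, isolated sites at 50.3% and reference CpGs at 18.6%, and mixed clusters at 88.9%.

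The share with the repeat was highest in clusters with sites of both directions, with overlapping intervals. It was found in 32 of 36 such clusters (88.9%), in 86 of 117 with gains only (73.5%) and in 46 of 70 with losses only (65.7%). Of the 164 clusters in the repeat, 80.5% had 1 direction, against 93.2% of the 59 clusters outside it. For neighbouring sites within clusters, 187 of 224 pairs in the repeat (83.5%) and 63 of 67 pairs outside it (94.0%) shared the direction. The repeat therefore held 37 of the 41 pairs with opposite directions. Of the tested sites in their spans, 60.7% were called in clusters with the repeat and 64.6% in those without it, and the mean difference was a gain in 63.4% and 55.9% of clusters.

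Clustered sites, like isolated ones, recurred at the same positions of the repeat in different copies. Of the clustered sites in aligned windows, 381 could be placed on the representative, and 304 of them (79.8%) lay on 15 positions with at least 14 sites each, counted from 1 at the 5′ end of the sequence above. These positions were picked by their own counts, and the share of all CpGs of the copies that lie there is not given. They were CpGs in 17.5% (position 170) to 65.9% (position 134) of aligned cluster windows, so 79.8% alone shows no excess. Position 134 held most called sites, with 20 gains and 10 losses, and was a CpG in 108 of 164 aligned cluster windows. Per 100 cluster windows with a CpG at the position, 27.8 sites were called at position 134. This value was 53.6 at position 170, a CpG in only 28 of 160 windows, and 35.9 at position 121, a CpG in 39 of 164. It was 2.05 at position 93, which was a CpG in 146 of 164 windows and held 3 called sites. Position 93 lies within the CCGG that starts at position 92. The counts thus did not simply follow how often a position was a CpG. Position 127 held 16 gains and 13 losses, position 129 held 13 gains and 11 losses, and position 224 held 18 gains and 7 losses. All 15 positions held both gains and losses, so that the same CpG of the repeat was hypermethylated in some copies and hypomethylated in others. This was not particular to clusters, as isolated sites also showed both directions at all 15 positions. They had 21 gains and 18 losses at position 134, and 37 gains and 28 losses at position 182. By ratio, the strongest excess of gains among these positions was at position 160, with 14 gains and 3 losses, whereas positions 96 and 141 had slightly more losses than gains (8 against 7, and 10 against 7).

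**Figure D2:**
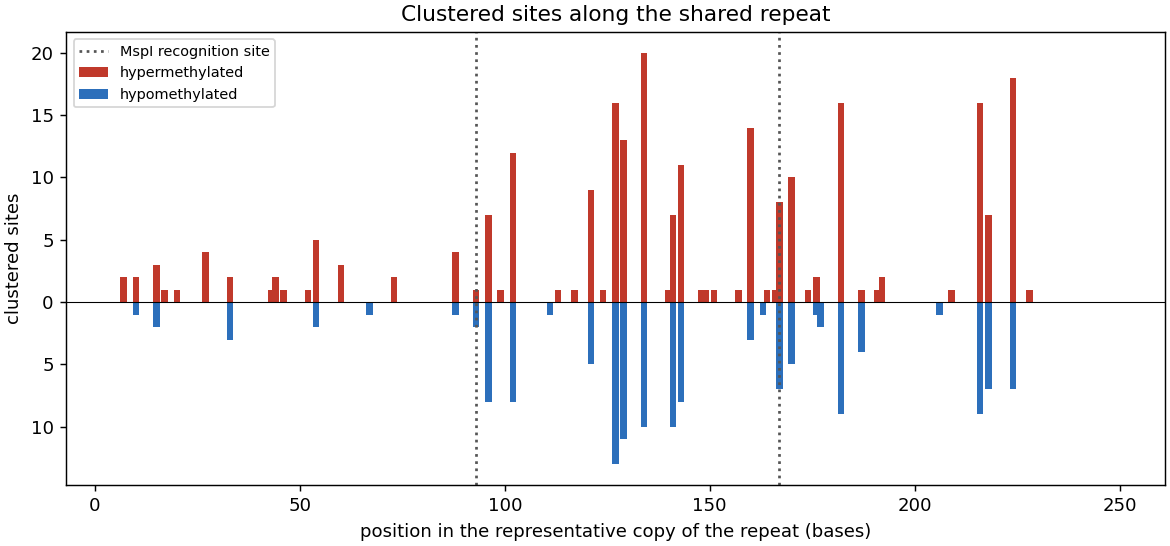
Clustered sites (vertical axis, number of sites) by position in the representative copy (horizontal axis, bases from its 5′ end), hypermethylated sites above and hypomethylated sites below the line, with dotted lines at the 2 commonest MspI recognition sites. Position 134 carried 20 gains and 10 losses, and most sites lay after the recognition site that starts at position 92.

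The repeat also carries its own MspI sites. The letters CCGG, which read the same on both strands, stood at position 92 in 144 of 164 aligned cluster windows (87.8%), in 79.5% of aligned windows of isolated sites and in 76.3% of those of reference CpGs. At position 166 they stood in 39.5%, 35.1% and 67.9% of these windows. The reference windows were drawn only from fragments of 40 to 400 bp, which favours copies cut at both positions. Nothing is therefore read from the contrast with them. Clustered sites lay a median of 41 bp from the nearest cut and isolated sites 40 bp, and no site of either kind was farther than 141 bp. All sites of a cluster fell in 1 MspI fragment in 203 of 223 clusters, with a median fragment length of 305 bp (74 to 2248 bp), and in 61 clusters (27.4%) that fragment was of 40 to 220 bp. Sites of these clusters can lie on the same reads, and their differences are not separate measurements.

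A near copy elsewhere in the reference, at 95% identity or more over at least 90% of the cluster and 50 bp on each side, was found for 99 of 223 clusters (44.4%) and 30.2% of isolated sites. Of these 99 clusters, 96 were in the repeat. Such a copy existed for 58.5% of clusters in the repeat and 5.08% of the others, and for 18 of 36 mixed clusters against 43.3% of clusters with 1 direction. Of the 223 clusters, 76.7% touched bases soft-masked as repeats in the reference, compared with 58.7% of isolated sites. The part that reads from other copies play in these differences was not tested.

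Most clusters were pairs of sites. Of the 224 clusters, 175 held 2 DMSs, 38 held 3, 8 held 4, and single clusters held 5, 6 and 9. The span from first to last site had a median of 34 bp (3 to 129 bp), and 7 clusters were longer than 100 bp through chaining. By the row numbers of the deposited table, the spans held 836 tested sites, of which 516 were called (61.7%) and 320 were not. In 85 clusters every tested site was called. Over the whole table at most 0.352% of 667810 tested sites were called, 0.209% as gains and 0.143% as losses. Since clusters are built from called sites, nothing is read from that contrast.

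Hypermethylation prevailed in clusters, with 316 gains and 200 losses. Gains made up 61.2% of clustered sites (56.9 to 65.5%) and 58.8% of isolated sites (1078 of 1833), a difference within the interval. The quartiles of the size of the difference were 28.0 and 36.6 points in clusters and 27.0 and 35.3 points in isolated sites, and 17.1% and 12.8% of sites were at 40 points or more. All sites agreed in direction in 188 of 224 clusters (83.9%), 118 with gains and 70 with losses, while 36 were mixed. Among the 49 clusters of 3 or more sites, 77.6% had 1 direction.

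**Figure D3:**
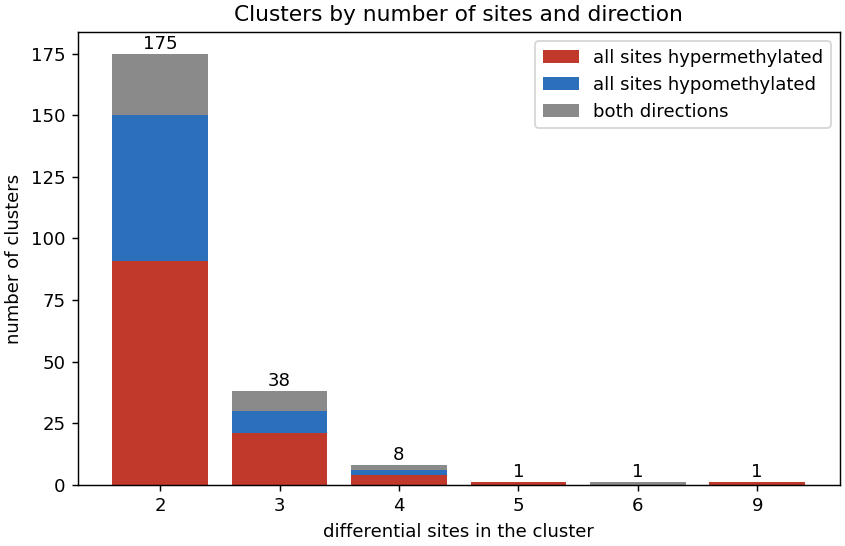
Number of clusters (vertical axis) by the number of DMSs they hold (horizontal axis), divided into clusters with gains only, losses only and both directions. Pairs make up 175 of the 224 clusters, with 91 gains, 59 losses and 25 mixed.

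Sites of a cluster with 1 direction had differences of like size, as did neighbours farther apart. In clusters of 1 direction the range between the largest and smallest difference had a median of 2.53 points (0.031 to 32.5), all sites being past the same limit of 25 points. Between neighbours of the same direction the median difference was 2.29 points within 100 bp, 3.30 points at 101 to 200 bp and 3.58 points at 1001 to 10000 bp. In mixed clusters, in which the limit of 25 points fixes a range of at least 50, it had a median of 65.1 points (52.4 to 88.5). Neighbours 2 to 10 bp apart agreed in direction in 59 of 67 pairs (88.1%), and those 51 to 100 bp apart in 41 of 49 (83.7%). Beyond the limit of the rule, pairs 101 to 200 bp apart agreed in 11 of 14 cases (78.6%) and pairs 1001 to 10000 bp apart in 78.2% of 101. The intervals of all these shares overlap, so no fall with distance can be read from them. Pairs next to each other among tested sites agreed in 87.9% of 132 cases, and pairs with at least 4 uncalled sites between them in 78.9% of 19.

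**Figure D4:**
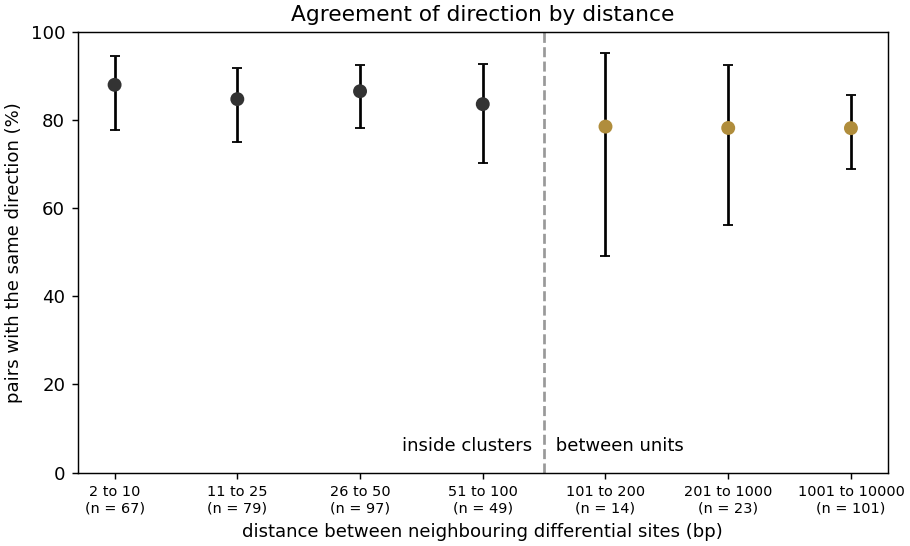
Share of neighbouring DMS pairs with the same direction (vertical axis, percent) by their distance (horizontal axis, bp), with exact 95% intervals of counting as bars and the number of pairs below each bin; the dashed line marks the limit of 100 bp. Shares lie between 83.7 and 88.1% inside clusters and between 78.2 and 78.6% beyond them, with overlapping intervals.

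The limit of 100 bp divided pairs of like values. Just inside it were sites given in the table as NALCN (98 bp apart, -28.8 and -25.6 points), FAM50B (95 bp, 28.3 and 33.0 points) and ANKRD2 (91 bp, 43.9 and 30.6 points). Just outside it, at 101 bp, were sites of MAP2K3 (41.6 and 30.2 points), CUX1 (29.2 and 33.4 points) and KIAA1614 (38.3 and 39.0 points), all counted as isolated from each other.

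Among the 11 clusters of at least 4 sites, all of which lay in the repeat, 6 were hypermethylated throughout, 2 were hypomethylated and 3 were mixed. In MARK3, a kinase that acts on microtubule-associated proteins, 9 of the 11 tested sites gained between 28.9 and 35.6 points within 68 bp, on repeat positions 93 to 160. In PFKFB4, which controls fructose 2,6-bisphosphate and with it glycolysis, 5 of 8 tested sites gained 27.6, 27.8, 33.9, 27.4 and 26.2 points in genome order. In VRK1, a nuclear serine/threonine kinase, 4 of 5 tested sites gained 36.7, 34.0, 33.7 and 34.4 points (chromosome 7, 117970577 to 117970632). These genes shared the direction over several CpGs, with a spread of no more than 7.7 points in any of the 3. In SVIL, whose product supervillin binds actin at membranes, the 4 gains were 41.0, 29.3, 32.8 and 28.9 points (chromosome 10, 41399702 to 41399766). All 4 tested sites near RNF135, a ubiquitin ligase of antiviral signalling, gained 33.2, 34.5, 27.0 and 26.1 points, although RefSeq places them outside genes (chromosome 12, 42791404 to 42791455). A further cluster of 4 gains (26.4 to 29.5 points) lay outside genes on chromosome 6 from 170295787.

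The clusters with losses or both signs among these 11 lay outside genes. The largest difference among them was seen on the unplaced scaffold that also holds MARK3, where 5 of 7 tested sites from position 2619106 had -62.9, -63.3, -63.3, -56.7 and -62.7 points. Between the fourth and the last of them, the site at 2619147 gained 25.1 points. This cluster, MARK3 and PFKFB4 all had called sites at repeat positions 102 and 134: at position 134 the difference was -63.3 points in the scaffold cluster, 30.2 in MARK3 and 33.9 in PFKFB4. The 3 copies thus differed in direction at the same CpG of the repeat. On chromosome 13 from 202936077, 4 of 6 tested sites had -33.4, -25.7, -25.4 and -42.2 points, and on chromosome 6 from 21405572, 4 of 8 had -36.8, -27.0, -30.2 and -28.1 points. Signs alternated in the cluster on chromosome 7 from 5557017 (26.5, -31.6, 25.1 and -25.8 points), and 1 gain of 25.2 points stood among losses of -32.6, -43.2 and -30.2 points on chromosome 14 from 120932296.

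**Figure D5:**
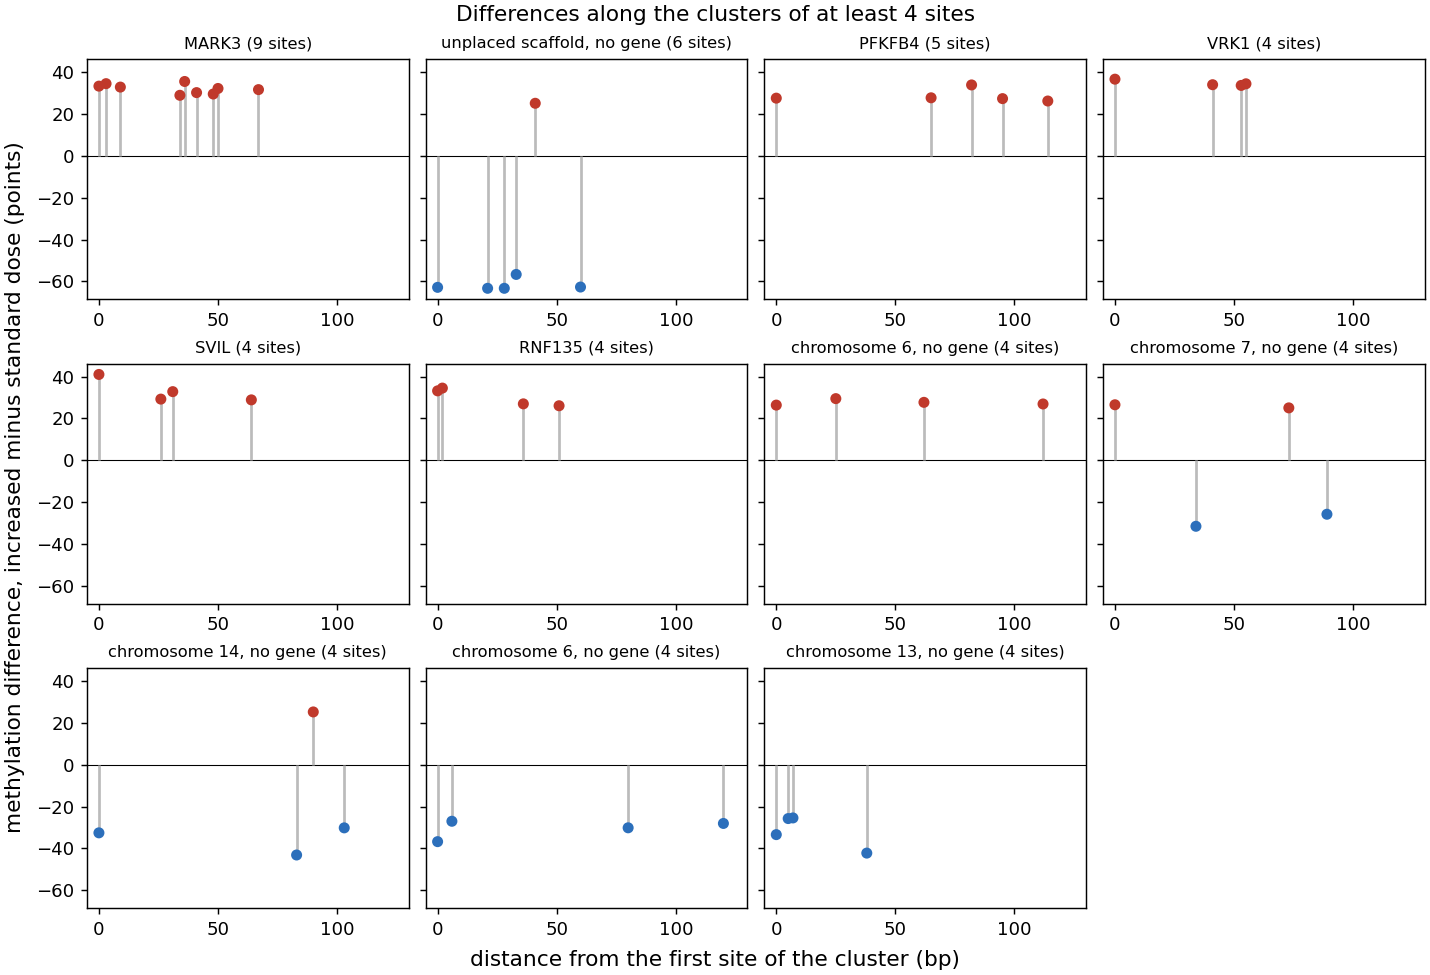
Methylation difference of each DMS (vertical axis, points, increased minus standard dose) by distance from the first site (horizontal axis, bp) in the 11 clusters of at least 4 sites, red for gains and blue for losses. The 9 sites of MARK3 all lie near 32 points, while the scaffold cluster has 5 sites between -63.3 and -56.7 points and 1 at 25.1 points.

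Among clusters with gains only, the 10 with the largest mean gain lay between 46.0 and 54.0 points. The first, on chromosome 1 from 225106392, had 3 of 5 tested sites at 52.1, 55.9 and 54.1 points, in an intron of the uncharacterised LOC110255688. Both tested sites of a cluster in LRP1, a large endocytic receptor, gained 51.3 and 49.1 points (chromosome 5, 22476899 and 22476924). Near EPYC, which encodes a small proteoglycan of the extracellular matrix, 2 of 3 tested sites gained 51.7 and 50.4 points at 6415 bp from the gene start. Of these 10 clusters, 7 lay in the repeat, and those on chromosome 4 from 96686218 (48.7 and 47.2 points) and 96920332 (44.6 and 47.6 points) and on chromosome 6 from 57668129 (mean 50.5 points) did not.

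Among clusters with losses only, the 10 with the largest mean loss lay between -61.9 and -37.6 points. In SCAF1, a serine/arginine-rich protein that binds RNA polymerase II, both tested sites lost methylation, with -63.5 and -60.3 points. In WWOX, an oxidoreductase with WW domains, the difference was -53.3 and -52.9 points at sites 6 bp apart (chromosome 6, 9199878 and 9199884). The kinase gene STK32B had -47.7 and -47.0 points, and SMOC1, which encodes a calcium-binding protein of the matrix, had a cluster of -44.3 and -45.1 points 149141 bp from its start. In DOCK1, an activator of the small GTPase Rac, 3 of 8 tested sites lost -36.1, -42.6 and -44.6 points, and in SPARCL1, a secreted matricellular protein, sites 2 bp apart had -30.5 and -44.6 points. Of these 10 clusters, 6 lay in the repeat, and SCAF1, DOCK1, TECPR2 and a cluster on chromosome 2 from 4388274 (-49.4 and -58.5 points) did not.

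Of the 36 mixed clusters, 25 were pairs of a gain and a loss. The 2 differences were of like size in some pairs and not in others, all being past the limit of 25 points. In EBF3, a transcription factor of B cell and neural development, the 2 called sites among 5 tested had 40.8 and -45.7 points at 55 bp. In SETD7, a lysine methyltransferase, both tested sites were called with 39.0 and -36.1 points at 12 bp (chromosome 8, 87509749 and 87509761), and in RPTOR, the scaffold of mTOR complex 1, with 34.5 and -40.1 points at 9 bp. In TTLL3, a tubulin glycylase, the 2 sites were on neighbouring CpGs 2 bp apart with -26.5 and 47.5 points. These pairs changed sign over a distance shorter than a read. Clusters of 3 showed either order: LIMD1, a LIM domain adaptor, had -30.1, 46.2 and -29.8 points, and TBC1D22B, which has the domain of Rab GTPase activators, had -40.3, 32.3 and 31.8 points. The widest mixed pairs outside genes were on chromosome 3 from 20022340 (-37.8 and 41.6 points), chromosome 6 from 17036345 (34.8 and -43.2 points) and chromosome 15 from 46173746 (-36.8 and 38.8 points). The mixed clusters with narrower ranges included those in or next to LDB2, PLK1, PRPH2, BICDL1, SHMT1, AGO2, STAT2, ASMT, SPECC1, ZMAT4, KIF3B, BTRC and OXR1, and 13 without a symbol on chromosomes 2, 5, 6, 7, 8, 11, 13, 14 and 18. In SHMT1, which transfers 1-carbon units from serine to folate, the values were -28.3 and 37.2 points. The cluster given as STAT2 in the table (-26.7 and 37.8 points) lies in an intron of PAN2 by RefSeq.

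Like isolated sites, clusters were mostly in introns or outside genes. By RefSeq models 121 of 223 clusters lay in introns, 93 outside genes, 4 in non-coding exons, 2 in promoters (1000 bp before a gene) and single clusters in a coding exon, a 5′ UTR and a 3′ UTR. Promoters held 0.897% of clusters and 1.27% of isolated sites, coding exons 0.448% and 1.33%, and gene bodies 57.4% and 62.1%, and clusters lay a median of 31335 bp from the nearest gene start. The coding exon was in SASH1, a signalling scaffold, where 2 of 5 tested sites lost methylation with -27.1 and -29.5 points (chromosome 1, 17309890 and 17309935). The promoter of RPS27, a ribosomal protein gene, held sites with gains of 28.2 and 26.4 points, 261 bp from the start and within the repeat (chromosome 4, 95699742 and 95699750). The other promoter, of LOC110258194 on an unplaced scaffold and given as ASMT in the table, held 1 of the 2 sites of a mixed cluster, the one with -28.4 points, while the site with 35.9 points lay just outside it. The 3′ UTR of TECPR2, a gene of autophagy, had -39.2 and -36.3 points, and the 5′ UTR of LOC110257938 on chromosome Y had 44.6 and 40.1 points. That 5′ UTR cluster lay within the repeat and had a near copy elsewhere. In non-coding exons all 4 clusters were gains, at RIPOR3 (32.9 and 35.9 points) and at 3 sets of uncharacterised loci on chromosomes 6 and 8 (25.2 to 51.1 points).

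Of 102 genes with a cluster by the symbols of the table, 5 had more than 1. MYT1L, a transcription factor of neurons, had 3 clusters over an intronic stretch on chromosome 3, all gains and none in the repeat. Their values were 30.7 and 32.0 points from 132168448, 36.8 and 32.1 points from 132188175, and 32.3 and 51.8 points from 132206203. SDK1, an adhesion molecule of the immunoglobulin superfamily, had 2 clusters of losses 1971 bp apart, with -33.4, -37.5 and -31.0 points and with -41.8 and -39.4 points. The clusters of these genes agreed in direction. RPTOR and SPECC1 each had 1 cluster of gains (38.4 and 42.2 points, and 25.3 and 32.2 points) beside 1 mixed cluster. The symbol U6, a spliceosomal RNA with many copies, stood for a cluster of losses on chromosome 12 (-27.9 and -25.1 points) and 1 of gains on X (66.3, 33.9 and 36.7 points), which are different loci.

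Clusters were also counted over lists of gene symbols and symbol beginnings, matched to the symbol in the table or to the RefSeq gene. The lists hold only part of each class of genes, so the counts below are those of the lists and not of the classes. Some clusters of like genes outside a list are named beside it, after their values were seen. The list of kinases and phosphatases also holds subunits of kinase complexes that are not kinases, such as RPTOR and MAPKAP1. It matched 8 clusters, 6 of gains, 1 of losses and 1 mixed. The largest means on it, by size, were in STK32B (-47.3 points), RPTOR (40.3 points), PRKAR2A (38.7 points), a regulatory subunit of protein kinase A, and MARK3 (32.1 points). Outside it stood gains in the kinase genes VRK1 (34.7 points) and SRPK2 (25.2 points) and the phosphatase gene PPM1L (26.7 points), and the mixed cluster of the mitotic kinase gene PLK1. The list of transcription factors matched 10, with 6 gains, 2 losses and 2 mixed, among them KLF12 (37.0 points), a repressor, and CUX1 (-32.9 points), a homeobox factor. One of the mixed matches was the cluster given as STAT2, and GRHL1 (-29.3 points) and HIVEP1 (27.5 points) were not on the list. The list of small GTPase regulators matched 3 gains, 3 losses and 1 mixed cluster, from AGAP1 (44.8 points), which acts on Arf proteins, to DOCK1 (-41.1 points). It left out 3 gains in genes of exchange factors, 1 in FARP2 (34.4 points) and 2 in RASGEF1B by RefSeq (32.3 and 43.7 points).

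On the list of chromatin genes, 3 of 4 matched clusters were losses, and the remaining 1 was the mixed SETD7. One loss was near the methyltransferase gene SETD3 (-36.0 points), which was listed by its symbol, and lay outside genes by RefSeq. The others were in the Polycomb-related SFMBT2 (-29.3 points) and BICRA (-27.3 points), a subunit of a BAF complex. Outside the list stood, among others, a gain in MLLT10 (31.3 points) and a loss in RERE by RefSeq (-37.4 points). The list of nuclear pore and RNA processing genes likewise matched 3 losses, in SCAF1 (-61.9 points), NUP214 (-32.2 points) and NUP107 (-27.3 points), both nuclear pore subunits, beside the mixed AGO2, which binds small RNAs. Outside it were, among others, losses in SNRNP48 (-31.9 points) and IGF2BP3 (-28.4 points) and a gain near KPNB1 (25.9 points). The cytoskeletal list matched 3 gains, SVIL, TTLL8 (31.3 points) and MYOM1 (28.2 points), and 2 mixed clusters, and a gain in CAPZA1 (32.4 points), which caps actin filaments, was outside it. The list of metabolic enzymes matched 2 gains, PFKFB4 (28.6 points) and ADH5 (28.7 points), 2 losses, WWOX (-53.1 points) and HS3ST4 (-30.5 points), and the mixed SHMT1. Enzyme genes outside it were, among others, GOT2 (33.1 points), ADA2 (33.9 points), PANK2 (29.6 points) and SARDH (-28.3 points). The list of transporters and channels matched 3 gains, with KCNK12 (28.6 points), a potassium channel subunit, and 2 losses, with SLC26A8 (-32.5 points), an anion transporter, while the sodium leak channel gene NALCN (-27.2 points) and the channel gene PANX2 (32.8 points) were outside it. The list of adhesion genes matched the 2 losses of SDK1 and a gain in COL24A1 (26.7 points), a collagen chain. Outside it stood, among others, a gain in JAM2 (30.3 points), a junctional adhesion molecule. The ubiquitin list matched a gain near RNF135 and a loss near CUL2 (-27.3 points), a ligase scaffold, and left out the ligase genes BTRC, with a mixed cluster, and SH3RF3 (-27.6 points). With so few clusters on each list, no direction is read from these counts.

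Clusters were present on every chromosome. Most clusters, 23 and 20, were on chromosomes 3 and 6, which also held most DMSs (209 and 248), and the share of sites in clusters was 23.4% and 19.4% there. It lay between 11.4% on chromosome 18 and 33.3% on Y (4 of only 12 sites), and the 9 clusters on unplaced scaffolds held 30 of the 97 sites there. On chromosome 1, 8 of 13 clusters were losses and none was mixed, whereas on chromosomes 7 and 14, 5 of 17 and 5 of 12 were mixed. Both clusters on Y were gains, and those on X were 3 gains and 1 loss. Each group held 4 males and 4 females, so values on Y can rest on at most 4 animals per group if their reads come from Y. The Y cluster from 6971171 lay in the repeat with a near copy elsewhere, whereas that from 7141614 had neither. The origin of these reads was not tested. Cluster windows had a median of 11 CpGs in 200 bp and isolated sites 8, with GC shares of 55.1% and 53.5%. By a lenient definition (200 bp or more, GC above 0.5, ratio of observed to expected CpGs above 0.6), 85.2% of clusters and 66.2% of isolated sites lay in a CpG island, and by a strict one (500 bp, 0.55 and 0.65) 20.6% and 18.0%.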

How the data were processed

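Lung DNA of 16 pigs, 8 per dose, was examined by RRBS, with groups taken from the labels. According to the methods section of the paper, paired reads were trimmed by the authors with FlexBar 3.5.0 and aligned to Sscrofa11.1 with BSMAP 2.9.0 set for MspI. CpGs with 5 reads or fewer were dropped, and methylKit 1.26.0 was run on the 2 groups. FastQC, methylKit 1.26.0 and Sscrofa11.1 also stand in the notes on processing by the submitters. For each kept site, the deposited table gives a p-value and a q-value from the authors' methylKit run. The methylation difference, also computed by the authors, is treated as a signed score in percentage points, increased minus standard dose. These columns hold the authors' comparison, and nothing else is in the table. Depth per site is unknown, and how that run treated spread between animals was not given in the sources used here.

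Sites were sorted and chained at up to 100 bp, which recovered 600 of 600 clusters planted in simulated data. Row numbers of the table, read as rows of all tested sites, gave the tested sites in each span. Sites were placed on the RefSeq copy of Sscrofa11.1, where all 514 placed clustered sites were CpG cytosines. Of 32 unplaced scaffolds, 7 were matched, each by at least 4 sites, and 1 cluster was not placed. Gene models came from the RefSeq annotation. Copies and the shared repeat were searched with BLAST 2.17.0 (E-value up to 1e-05 for the repeat). Reference CpGs were every 2000th CpG of in silico MspI fragments. Shares have exact Clopper-Pearson intervals (SciPy 1.17.1). No test was run, since the list was selected on this contrast. The members, gene groups and rules were chosen with earlier results of these data known, and the repeat analysis after the cluster sequences had been seen. Named clusters were those of at least 4 sites, the 10 largest mean gains and losses, mixed clusters, those in promoters, UTRs or exons, genes with several clusters, and up to 4 genes per symbol list. NALCN, FAM50B, ANKRD2, MAP2K3 and KIAA1614 were named for their place at the limit of 100 bp, and genes outside the symbol lists after their values were seen.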

Additional observations from a re-analysis of the deposited data

How the results depend on the processing

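Gaps of 50, 200 and 1000 bp, chromosomes only, a difference of at least 30 points, a q-value under 1e-10 and other definitions were tried as 33 alternatives in all, and 23 stayed within the interval of the value reported, or within 1.5 times the count. The other 10 moved. With at least 30 points there were 117 clusters, 88.9% of them with 1 direction, and 65.9% of sites were gains. A gap of 50 bp put 18.4% of sites in clusters and a gap of 1000 bp 24.8%. Of clusters with 3 or more sites, 77.6% had 1 direction. A gene symbol was given in the deposited table for 48.2% of clusters, some of which lie outside genes by RefSeq. Fragments of 40 to 220 bp held 27.4% of clusters, and strict islands 20.6%. The repeat at 85% identity or more was found in 43.9%, an alternative chosen after seeing the data, as were at least 150 bp of alignment and another representative window (73.5% each).

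Only group values are in the table, so no minimum of reads was tried and no animal was left out. No paired analysis applied, because the doses were given to different animals, no pairing of them is described, and the results come from no test. Depth per site is unknown, so single differences have no interval. Row numbers give a lower bound on the number of tested sites.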
